A study of Mus musculus with 3 samples.

Results

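The annexins are described here across 3 mouse gastric tumours, each set against 1 pool of normal gastric mucosa. The members are 10 genes, Anxa1 to Anxa8, Anxa10 and Anxa13, taken by gene name among the gene spots of the arrays, with every probe of each. They have 13 probes and 22 spots per array, of 39429 gene probes on the array, and are 10 of the 19434 genes tested. The genes were chosen from the log2 ratios described below, so those ratios are given as a description. Where a member is said to be called, this only records that it met the rule applied to all genes, and no result rests on it.

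Each of the 3 tumours was a primary diffuse-type gastric cancer of a 12-month-old mouse with the genotype Atp4b-Cre+;Cdh1loxP/loxP;Trp53loxP/loxP. The pool held 5 normal gastric mucosae of 12-month-old mice with the genotype Atp4b-Cre-;Cdh1loxP/loxP;Trp53loxP/loxP, so tumours and pool shared the floxed alleles of Cdh1 (E-cadherin) and Trp53 (p53) and differed in Cre. Cre is driven by the promoter of Atp4b, a proton pump subunit of parietal cells, which limits the cells in which the recombination starts. The mucosae were freed of stroma by mechanical means in 30 mM EDTA-2Na, and the labels name no such step for the tumours. Every array carried 1 tumour in red (Cy5) and the same pool in green (Cy3), labelled from 250 ng of total RNA. Of 43020 gene spots, 64.0 to 66.8% were well above background in red and 52.5 to 54.2% in green.

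Annexins bind acidic phospholipids, phosphatidylserine among them, when calcium rises, and so attach to the inner face of membranes, to vesicles or, once released, to the surface of cells. Most consist of a conserved core that binds calcium and membrane and an N-terminal stretch that differs between members and binds partners such as S100 proteins. They are known for roles in vesicle traffic, membrane repair, the cell-surface activation of plasminogen and the resolution of inflammation, and Anxa10 is known as an annexin of the stomach epithelium.

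The promoters of the members with the highest and the lowest ratios are shown first, because these genes stood furthest apart in the tumours. Sequences are from RefSeq on GRCm38.p6 and cover the 250 bases before the gene's start, on the gene's strand. A promoter was matched for 7 of the 10 members, with none for Anxa3, Anxa6 and Anxa13. Capitals mark matches, on either strand, to any of 6 motifs. The TATA box was searched as TATAAA, the inverted-repeat site of the AP-1 factors as TGANTCA, and the GC box as GGGCGG. The site of GATA factors was searched as AGATAA, the E-box that Snail family repressors bind as CACCTG, and the CCAAT box by its own letters. No match overlapped another. The Anxa1 window lies on chromosome 19 from 20390672 to 20390921 (minus strand), that of Anxa2 on chromosome 9 from 69453433 to 69453682 (plus strand), that of Anxa8 on chromosome 14 from 34085729 to 34085978 (plus strand) and that of Anxa10 on chromosome 8 from 62123194 to 62123443 (minus strand).
Anxa8: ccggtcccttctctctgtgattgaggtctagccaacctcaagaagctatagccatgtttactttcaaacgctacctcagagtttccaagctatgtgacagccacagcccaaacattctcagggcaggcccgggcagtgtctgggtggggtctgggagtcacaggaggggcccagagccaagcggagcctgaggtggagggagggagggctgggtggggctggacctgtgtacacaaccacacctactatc
Anxa1: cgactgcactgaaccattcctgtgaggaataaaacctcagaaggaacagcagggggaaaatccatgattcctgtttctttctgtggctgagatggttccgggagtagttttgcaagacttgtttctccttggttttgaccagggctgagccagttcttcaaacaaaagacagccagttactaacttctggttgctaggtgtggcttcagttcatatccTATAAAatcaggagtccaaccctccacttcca
Anxa2: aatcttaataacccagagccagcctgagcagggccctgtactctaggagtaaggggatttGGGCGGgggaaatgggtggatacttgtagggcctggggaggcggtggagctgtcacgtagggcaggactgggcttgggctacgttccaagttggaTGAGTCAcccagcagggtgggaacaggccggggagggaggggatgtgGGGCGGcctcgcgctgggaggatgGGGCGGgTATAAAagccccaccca
Anxa10: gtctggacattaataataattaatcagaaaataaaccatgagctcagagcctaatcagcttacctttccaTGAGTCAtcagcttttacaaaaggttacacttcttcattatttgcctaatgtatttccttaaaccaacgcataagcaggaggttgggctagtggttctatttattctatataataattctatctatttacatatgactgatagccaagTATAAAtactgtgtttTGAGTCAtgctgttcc
TATAAA stood 32 bases before the start in Anxa1 and in Anxa10 and 17 bases before it in Anxa2, and 12.4% of the 32851 promoters in the table hold it. Anxa10 held TGANTCA at 2 places, 180 and 16 bases before the start, and Anxa2 held it once at 95, against 6.75% of all promoters with at least 1. Anxa2 held GGGCGG at 3 places, 190, 48 and 24 bases before the start, and 32.7% of all promoters hold it. The Anxa8 window held none of the 6 motifs. Of the other matched members, Anxa7 held GGGCGG and CACCTG (17.2% of all promoters), Anxa4 held AGATAA (9.99%), Anxa5 held none, and CCAAT (33.8%) was in no member. A match describes letters and no binding.

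Each probe was 60 bases long, with a GC content of 35.0 to 53.3% over the 13 probes. The longest run of bases that probes of different members shared was 8. The probes of Anxa1 (the dimmer of its pair), Anxa3 and Anxa13 are shown as examples of what the arrays read. Capitals mark the codons of the single reading frame without a stop.
Anxa1: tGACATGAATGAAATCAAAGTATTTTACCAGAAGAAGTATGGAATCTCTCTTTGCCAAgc
Anxa3: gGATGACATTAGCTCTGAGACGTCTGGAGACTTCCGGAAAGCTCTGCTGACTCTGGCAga
Anxa13: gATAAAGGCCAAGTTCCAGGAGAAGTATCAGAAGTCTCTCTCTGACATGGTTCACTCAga
Of the 13 probes, 11 had 1 frame without a stop and 2 had a stop in every frame. Exon or UTR was not assigned, because no annotation of mm9, the build of the probe coordinates, was used here. The RefSeq names also hold a pseudogene of Anxa2 under the synonym Anxa2rp, and whether the Anxa2 probe reads it was not tested.

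All values below are log2 ratios of tumour over pool or, where said, log2 signals of a single channel. A gene was called when its ratio differed from 0 at an adjusted p under 0.05 in limma's test over all genes and was at least 2-fold. In the arrays as a whole 3696 genes were called, 1814 higher and 1882 lower, and all genes together had a median log2 ratio of 0.05. Of the called genes 49.1% were higher, against 93.3% when each array was centred on the median of its gene spots without loess, a setting that raised the median of all genes by 0.72. The pool is 1 control sample, so the spread among normal mice is not in any test, and with the tumours always in red a dye effect was not cancelled. Its signals on the arrays are repeat readings of the same RNA. Where tumours are said not to overlap the pool, this covers those readings and not the range of normal mice. Atp4b was at -6.83 and Cdh1 at -4.24, while Trp53 was at -0.21 and was not called. The Trp53 probe was dim, with mean log2 signals of 6.41 in the tumours and 6.62 in the pool. The lowest well-above-background signals were 5.41 to 5.85 in red and 6.08 to 6.12 in green. The Trp53 ratio is therefore not read as unchanged RNA. The pool showed the defining markers of gastric mucosa: the summed signals of 5 parietal genes were 3320 to 3877 in the tumours and 377700 to 399100 in the pool, and those of 4 surface mucous genes 38840 to 77700 in the tumours and 1012000 to 1345000 in the pool. The summed signals of 4 pancreatic acinar genes were 6525 to 7410 in the tumours and 691700 to 807200 in the pool, and their part in the results was not tested.

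Among the 10 annexins, Anxa8, Anxa1 and Anxa2 were far higher in the tumours and Anxa10 and Anxa13 were lower. Of the 10, 3 were called higher, against 9.33% of all genes, and 2 were called lower, against 9.68% of all genes. The members were chosen with these ratios known, so nothing is read from the counts. Anxa3, Anxa5, Anxa6, Anxa4 and Anxa7 were not called. On each of the 3 arrays, red and green signals of all 10 were well above background, as they were for 15569 of all genes tested. No ratio thus rests on a channel at background, though the red signal of Anxa13 was low. In 6 members all 3 ratios were above 0, in 2 all 3 were below 0, and in Anxa4 and Anxa7 the signs were mixed. The median ratio of the members was 0.75, beside 0.05 for all genes. Fewer cells of a type and less RNA per cell cannot be told apart in these bulk samples, nor can more cells and more RNA per cell.

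**Figure D1:**
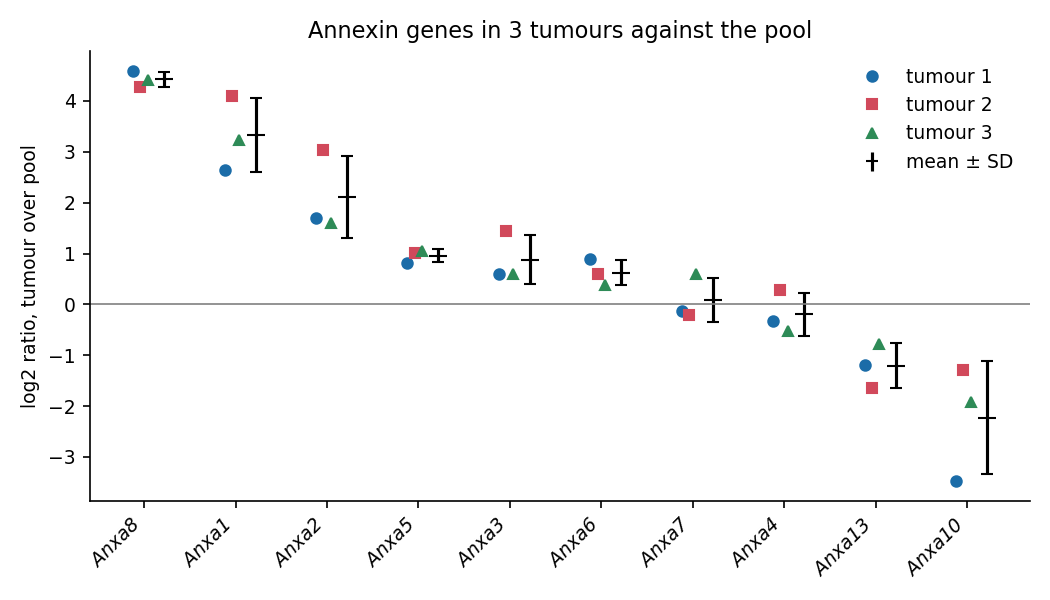
The log2 ratio of tumour over pool (vertical axis) for each annexin, with 1 point per tumour and the mean ± SD (n = 3) beside the points. Anxa8, Anxa1 and Anxa2 lie above 1.5 in every tumour, Anxa10 and Anxa13 lie below 0 in every tumour, and Anxa10 has the widest spread.

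Anxa8, an annexin known from stratified epithelia, stood highest. Its log2 signals in red were 13.68, 13.83 and 13.46 in tumours 1, 2 and 3, against 9.09, 9.55 and 9.05 for the pool in green on the same arrays. The tumours were alike, and the lowest tumour signal lay 3.91 log2 units above the highest pool signal. The ratios were 4.58, 4.28 and 4.41, a mean of 4.42 ± 0.15 (SD, n = 3), or 21.5-fold. Of the genes tested, 99.9% had a lower ratio. The probe is on chromosome 14 from 34913661 to 34913720 (mm9) and is spotted 10 times on each array. The SD over these spots was 0.08, 0.09 and 0.06 log2 units on arrays 1, 2 and 3, which is technical spread within an array.

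The dimmer Anxa8 probe, on chromosome 14 from 34913148 to 34913207, gave ratios of 3.31, 3.01 and 2.71 (mean 3.01 ± 0.30). It was also high in every tumour, but its ratios were lower by 1.27, 1.27 and 1.69 than those of the brighter probe, and the 2 probes put the tumours in a different order. The size of the Anxa8 difference thus depends on the probe, and the order of the tumours is not settled.

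Squamous markers were summed beside Anxa8, which that epithelium is known to express. Of 8 genes 6 were tested, 3 were called higher and none lower, and Krt15 and Krtdap were too dim in both channels to be tested. The summed signals were 4483, 7595 and 4859 in tumours 1, 2 and 3, against 2922 to 3084 in the pool. The list was highest in tumour 2, as was the red signal of Anxa8 by both probes. The Anxa8 ratio was instead highest in tumour 1 by both probes, at 4.58 and 3.31. By the brighter probe it was lowest in tumour 2, at 4.28, and the pool signal of both probes was highest on array 2. The part of these markers in the Anxa8 ratio was not tested.

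Anxa1, known as an inhibitor of phospholipase A2 that is induced by glucocorticoids and, outside cells, as a ligand of formyl peptide receptors, was second. Its log2 signals were 13.66, 14.94 and 14.01 in tumours 1, 2 and 3, against 11.02, 10.84 and 10.78 in the pool. Every tumour lay above every pool signal, by at least 2.65 log2 units. The ratios were 2.65, 4.09 and 3.23, a mean of 3.33 ± 0.73 (SD, n = 3), or 10.02-fold. Tumour 2 was 2.73-fold above tumour 1. Its probe is on chromosome 19 from 20447938 to 20447997 (mm9).

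The dimmer Anxa1 probe, whose sequence is printed above (chromosome 19, 20449722 to 20449781), gave ratios of 2.12, 3.08 and 2.53 (mean 2.58 ± 0.49). Both probes put tumour 2 highest and tumour 1 lowest. The brighter probe read higher by 0.53, 1.01 and 0.70 on the 3 arrays, so the order of the tumours held across probes while the size of the ratio did not.

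**Figure D2:**
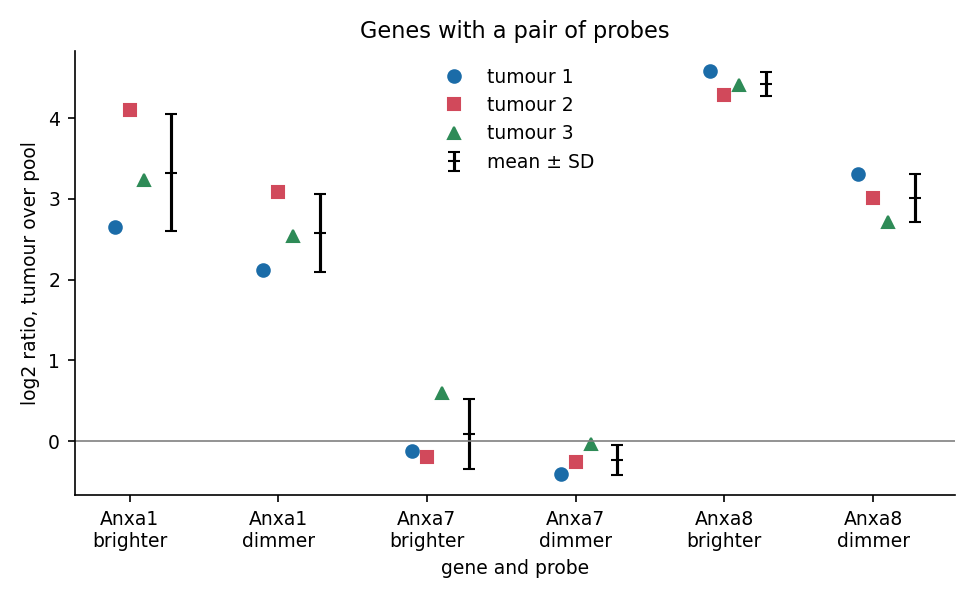
The log2 ratio of tumour over pool (vertical axis) for both probes of Anxa1, Anxa7 and Anxa8, brighter probe left of dimmer probe, with 1 point per tumour and the mean ± SD (n = 3). Both Anxa1 probes put tumour 2 highest, the Anxa8 probes differ by 1.41 on average, and the Anxa7 probes straddle 0.

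Anxa2, which forms a complex with S100a10 and binds plasminogen and tissue plasminogen activator at the cell surface, had log2 signals of 15.20, 16.09 and 15.21 in tumours 1, 2 and 3, against 13.50, 13.05 and 13.61 in the pool. The lowest tumour signal stood 1.59 log2 units above the highest reading of the pool. The ratios were 1.70, 3.04 and 1.60, a mean of 2.11 ± 0.81 (SD, n = 3), or 4.32-fold. Tumour 2 was again highest, 2.72-fold above tumour 3. On that array the pool signal was also the lowest of the 3. The probe is on chromosome 9 from 69339532 to 69339591 (mm9).

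Neutrophils and fibroblasts are known to hold much annexin A1 and A2. Markers of these and of several other cell types were higher in the tumours, though not those of every type listed. Of 8 neutrophil genes 5 were called higher and none lower, and their summed signals were 220500, 47850 and 56880 in tumours 1, 2 and 3, against 12340 to 13130 in the pool. Tumour 1 was highest in these markers and lowest in Anxa1. Of 7 fibroblast genes 6 were called higher and none lower, with summed signals of 145900, 104800 and 44750 in tumours 1, 2 and 3, against 14880 to 17090 in the pool. Of 7 macrophage genes 6 were called higher, with sums of 18950, 19670 and 18490 in the tumours and 3108 to 3158 in the pool. Of 6 smooth muscle genes 4 were called higher and none lower, with sums of 28710, 80760 and 38680 in tumours 1, 2 and 3, against 13410 to 14420 in the pool. Of 5 T cell genes 3 were called higher, with sums of 1508, 2574 and 1873 in the tumours and 903 to 1002 in the pool. The smooth muscle and T cell lists were both highest in tumour 2 and lowest in tumour 1, the order of Anxa1. The sums of the squamous list (4483, 7595 and 4859) and of the simple epithelium list (128200, 223100 and 130500) had this order too. Of 4 B cell genes 3 were called higher, with sums of 1960, 6992 and 1649 in the tumours and 395 to 501 in the pool, and tumour 2 was highest here too. Camp and Cxcr2 among the neutrophil genes and Cd68 among the macrophage genes, Cd3g among the T cell genes and Ms4a1 among the B cell genes were not well above background in the pool on any array. Endothelial genes had 2 of 6 called higher and none lower. Their sums were 5873, 4444 and 3570 in tumours 1, 2 and 3, against 3253 to 3386 in the pool. Among 4 adipocyte genes none was called higher and 1 lower. Their sums were 4816, 3616 and 2146 in the tumours and 4978 to 5569 in the pool. Mesothelium had 2 of 3 tested genes called higher and 1 lower, and Upk3b, Upk1b and Lrrn4 did not pass the filter on dim probes. Msln (6.66) and Wt1 (2.04) were higher and Krt19 (-1.27), also a simple epithelium gene, was lower, all named after their values were seen. The sums were 69310 to 88650 in the tumours and 83550 to 89940 in the pool. The pool sum mostly follows Krt19, at a mean log2 pool signal of 16.39 against 8.59 for Msln. The part of these cells in the ratios of Anxa1 and Anxa2 was not tested.

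**Figure D3:**
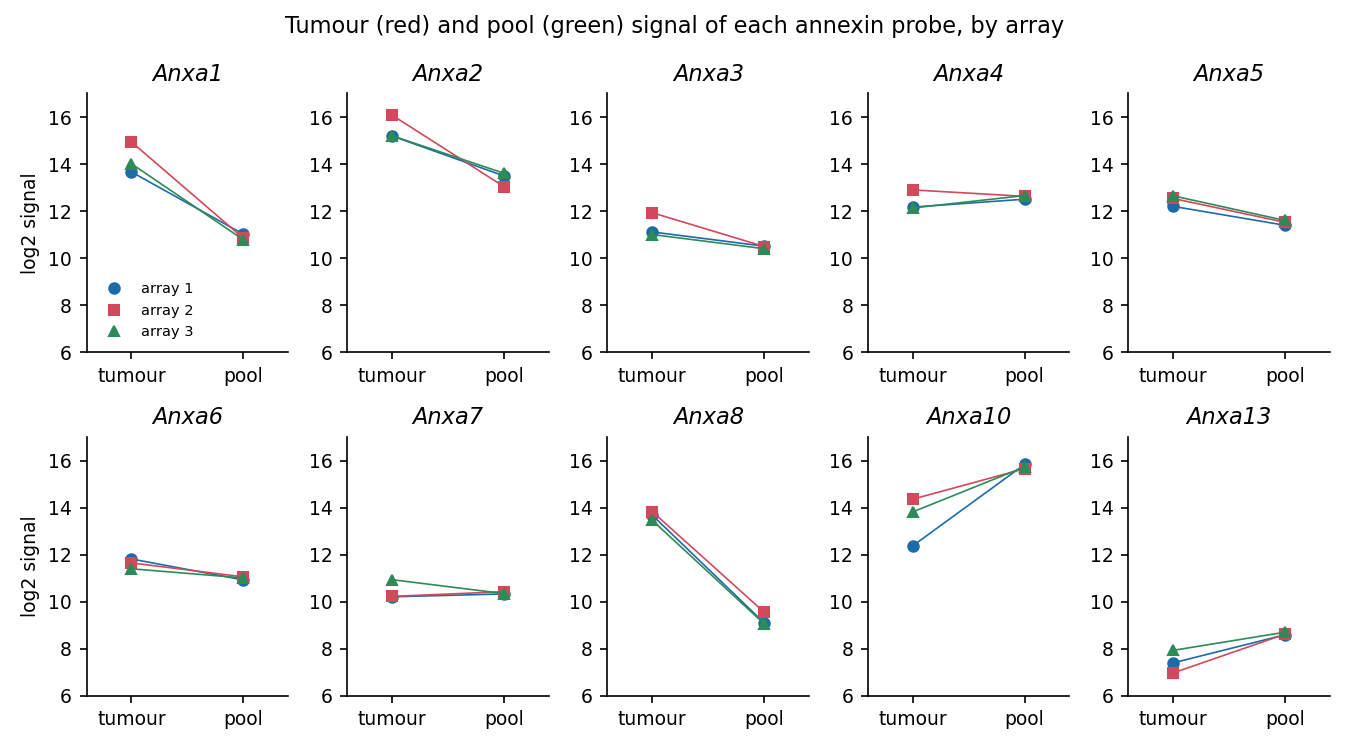
Log2 signal of each annexin's probe on each array (vertical axis), tumour in red channel on the left and pool in green channel on the right, with a line per array. The pool points lie close together on the 3 arrays for most genes, and the tumour points spread most for Anxa10.

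Anxa5, whose protein is used to detect phosphatidylserine on dying cells, had log2 signals of 12.20, 12.54 and 12.65 in tumours 1, 2 and 3, against 11.40, 11.52 and 11.60 in the pool. The tumours lay above the pool without overlap and close to each other. The ratios were 0.81, 1.02 and 1.05, a mean of 0.96 ± 0.13 (SD, n = 3), or 1.94-fold. Anxa5 was just short of the 2-fold limit, and its spread was the smallest among the 10. With Agilent's processed signals its mean was 1.05, past that limit.

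Anxa3, found in neutrophil granules and in several epithelia, had ratios of 0.61, 1.44 and 0.60, a mean of 0.88 ± 0.48 (SD, n = 3), or 1.84-fold. The tumours did not overlap the pool, with the lowest tumour signal 0.49 log2 units above the highest pool signal, and tumour 2 alone was more than 2-fold above the pool. Anxa6, an annexin whose core is duplicated and which is known for membrane and cholesterol traffic, had ratios of 0.89, 0.59 and 0.39, a mean of 0.62 ± 0.25, or 1.54-fold. All 3 tumours were above the pool here too, with tumour 1 highest. Both genes were under the 2-fold limit on average. Without tumour 1 the means of Anxa3 and Anxa5 were 1.02 and 1.03, and both then met the rule for a call.

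Anxa4, an annexin of epithelia, and Anxa7, known for vesicle fusion, did not separate the tumours from the pool. Anxa4 had ratios of -0.34, 0.28 and -0.53, a mean of -0.20 ± 0.42 (SD, n = 3), with tumour 2 above the pool and the other tumours below it. Anxa7 had ratios of -0.12, -0.20 and 0.59, a mean of 0.09 ± 0.44, with tumour 3 above the pool and the others below. In both genes the tumour signals overlapped those of the pool. The dimmer Anxa7 probe gave -0.41, -0.26 and -0.03, a mean of -0.23 ± 0.19, below 0 in every tumour. The direction of Anxa7 thus differed between its probes.

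Anxa10, the annexin known from the stomach epithelium, was lower in every tumour but by very different amounts. Its log2 signals were 12.37, 14.36 and 13.81 in tumours 1, 2 and 3, against 15.83, 15.65 and 15.73 in the pool. The highest tumour lay 1.29 log2 units below the lowest pool signal. The ratios were -3.47, -1.29 and -1.91, a mean of -2.22 ± 1.12 (SD, n = 3), or 4.67-fold lower. Tumour 2 was 4.50-fold above tumour 1, and only 1.66% of genes tested had a larger SD between arrays. The probe is on chromosome 8 from 64536504 to 64536563 (mm9). Without tumour 1, 2 or 3 the mean was -1.60, -2.69 and -2.38 in turn, and without tumour 3 the rule for a call was not met.

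Surface mucous and chief cell genes of the stomach were also lower in the tumours. The summed signals of the 4 surface mucous genes, all called lower, were 77700, 74610 and 38840 in tumours 1, 2 and 3. Tumours 1 and 2 were close in this sum, and tumour 3 was lowest, whereas Anxa10 was lowest in tumour 1. All 5 chief cell genes were called lower, with sums of 20120, 17710 and 18870 in tumours 1, 2 and 3, against 911600 to 1066000 in the pool. Of 5 simple epithelium genes 2 were called higher and 2 lower, with sums of 128200, 223100 and 130500 in the tumours and 228900 to 305400 in the pool. Tumour 2 was highest and tumour 1 lowest in the simple epithelium sums, as for Anxa10, though tumours 1 and 3 were close. The median ratios of this list were -0.16, 1.00 and -0.91 in tumours 1, 2 and 3. They put tumour 3 lowest, so the sums had the order of Anxa10 and the medians did not. The part of these cells in the Anxa10 ratio was not tested.

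Anxa13, an annexin of intestine and kidney epithelium, had log2 signals of 7.39, 6.96 and 7.93 in tumours 1, 2 and 3, against 8.59, 8.61 and 8.70 in the pool. Every tumour signal lay below every reading of the pool. The lowest well-above-background signals in red were 5.85, 5.41 and 5.60 on arrays 1, 2 and 3. Anxa13 was itself well above background on each array, so it lies above these limits by construction. The ratios were -1.20, -1.65 and -0.77, a mean of -1.21 ± 0.44 (SD, n = 3), or 2.31-fold lower. At these low red signals the size depended on the background correction. The mean was -1.59 with a normexp offset of 0 and -1.75 with Agilent's processed signals. Without tumour 2 the mean was -0.98, which is under the 2-fold limit. The probe is on chromosome 15 from 58173475 to 58173534 (mm9). Of 5 intestinal epithelium genes tested, 2 were called higher and 2 lower, and their sums were 40420, 46650 and 70390 in tumours 1, 2 and 3, against 13510 to 17910 in the pool. Fabp1 (-3.54) and Fabp2 (-2.58) were the genes called lower, and Lgals4 (1.94) and Vil1 (1.88) those called higher, all named after their values were seen. Tumour 3 was highest both in the sum and in the Anxa13 signal. Lgals4 was by far the brightest of the list, at a mean log2 tumour signal of 15.50, with Vil1 next at 11.66. The sum thus mostly follows Lgals4. The part of these cells in the Anxa13 ratio was not tested.

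The median SD between arrays was 0.44 for the 10 members and 0.19 for all genes tested, and 8 of the 10 were above 0.19. The tumours did not share one order: tumour 2 was highest for 5 members (Anxa1, Anxa2, Anxa3, Anxa4 and Anxa10), tumour 3 for 3 and tumour 1 for 2. The medians over the members were 0.71, 0.80 and 0.60 in tumours 1, 2 and 3, beside 0.04 for all genes on each array.

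The annexin ratios also depended on how the arrays were scaled. With centring on the median of the gene spots and no loess, which moved the median of all genes to 0.77, Anxa4 was at 1.23 and Anxa7 at 1.27. Anxa10 was then at -0.48 and Anxa13 at -0.33, and neither met the rule for a call. Relative to the median of all genes under that setting, Anxa10 was at -1.25 and Anxa13 at -1.09, while Anxa4 was at 0.46 and Anxa7 at 0.51. With centring on the spike-in controls, which moved the median of all genes by -0.13, Anxa4 was at 0.38. The relative values of all these genes were the same by construction. Both settings subtract a constant per array from the same ratios, so this is no second check. With the authors' deposited value table, which moved it by -0.15, Anxa10 was at -2.26 and Anxa13 at -1.75. Over the alternatives run, the ratios of Anxa8 ranged over 3.01 to 5.70, those of Anxa1 over 2.58 to 4.75 and those of Anxa2 over 1.65 to 3.83. All alternatives used the same 3 arrays that the genes were chosen from.

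**Figure D4:**
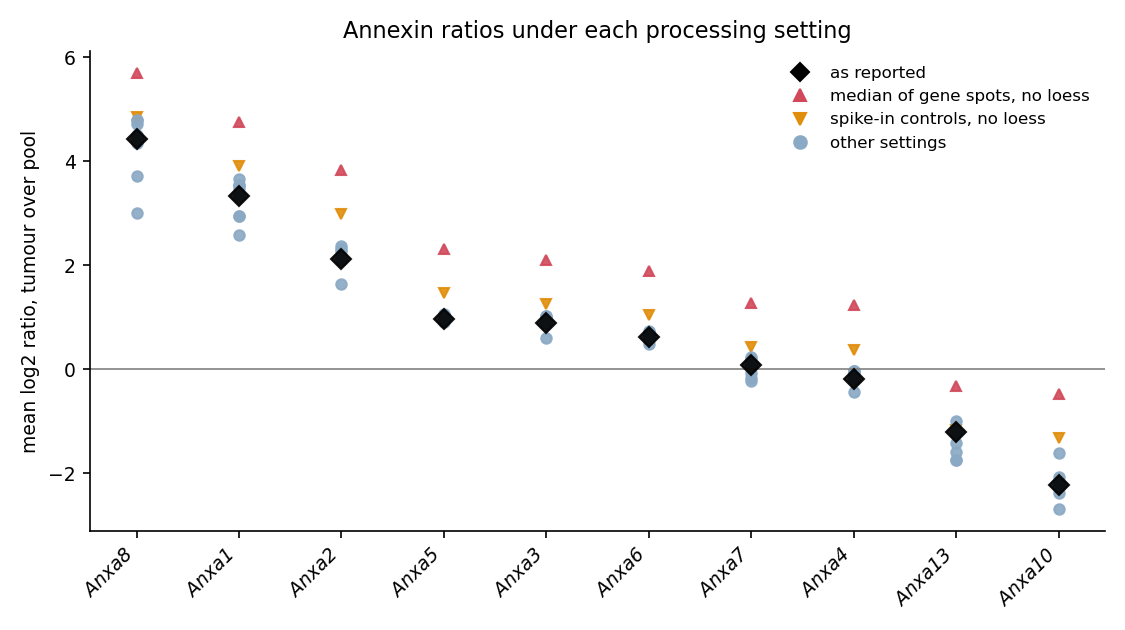
Mean log2 ratio of tumour over pool (vertical axis) of each annexin under each processing setting. The diamonds are the values reported here, triangles the settings without loess and circles the other settings. The median-centred values lie highest for every gene, up to 5.70 for Anxa8, and carry Anxa4 above 0.

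The 2 annexins of the array outside the members, Anxa9 and Anxa11, were not called, though each was under some alternatives. Anxa9, known from skin, had ratios of 0.13, 0.84 and 0.53 (mean 0.50 ± 0.35, SD, n = 3; adjusted p = 0.0615 in limma's fit), and its pool signal was above background on 2 of 3 arrays. Anxa9 was called higher with Agilent's processed signals, at 1.54, and with the authors' deposited table, at 1.398. Anxa11, a relative of Anxa7 with a long N-terminus, had ratios of -0.14, -0.22 and -0.15 (mean -0.17 ± 0.05; adjusted p = 0.166 in limma's fit). With the settings without loess Anxa11 was at 1.14 (gene-spot median), where it was called higher, and at 0.29 (spike-in controls).

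Genes that act with annexins were read from the same fit, as 57 genes tested in 5 lists and with the 2 relatives above counted among them. Across these 57 genes 16 were called higher and 3 lower. The shares of all genes called, 9.33% higher and 9.68% lower, stand beside these counts as the background.

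S100 proteins, the calcium-binding partners of annexin N-termini, had 3 of 5 tested genes called higher and none lower, and their median ratio was 1.36. S100a10, the partner of Anxa2, had ratios of 1.53, 1.74 and 1.20 in tumours 1, 2 and 3 (mean 1.49 ± 0.28, SD, n = 3; adjusted p = 0.00258 in limma's fit). It was highest in tumour 2, where Anxa2 was also highest. S100a11, a partner of Anxa1, had ratios of 1.36, 1.24 and 1.49 (mean 1.36 ± 0.13; adjusted p = 0.00147 in limma's fit). S100a4, which binds Anxa2, had the highest ratio of the list, 3.53, 3.83 and 2.49 (mean 3.29 ± 0.71; adjusted p = 0.00227 in limma's fit).

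In the cell-surface plasminogen system, in which Anxa2 and S100a10 serve as a receptor, 3 of 10 tested genes were called higher and 1 lower, with a median ratio of 0.80. Plaur, the urokinase receptor, had 2.16, 2.48 and 2.08 (mean 2.24 ± 0.21; adjusted p = 0.000856 in limma's fit). Plat, tissue plasminogen activator, had 1.80, 1.98 and 0.93 (mean 1.57 ± 0.56; adjusted p = 0.00832 in limma's fit). The only gene called lower was Plgrkt, a plasminogen receptor, at a mean of -1.13 (adjusted p = 0.00166 in limma's fit), which was named after its values were seen. A receptor and an activator of the system were thus higher in the tumours, and another receptor was lower.

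Among annexin A1 receptors and phospholipases A2, 2 of 8 tested genes were called higher and none lower, with a median ratio of 0.49. Fpr2, a receptor of annexin A1, was not well above background in the pool on any array. Its ratios were 2.47, 0.82 and 0.89 (mean 1.39 ± 0.94; adjusted p = 0.0384 in limma's fit). The bound on the mean of the 3 tumours was 2.63-fold higher, while tumours 2 and 3 by themselves read under 2-fold. That bound is the mean of the tumours over the higher, per array, of the lowest signal above background and the pool's own signal. For Fpr2 it equals the fold of the mean ratio, and it is open to dye bias. Fpr2 was highest in tumour 1, as were the summed neutrophil markers, and leaving out any 1 tumour ended its call (0.85, 1.68 and 1.65 without tumours 1, 2 and 3). Alox5ap, needed for leukotriene synthesis, had ratios of 2.48, 1.45 and 1.18 (mean 1.70 ± 0.69; adjusted p = 0.0107 in limma's fit) and was likewise highest in tumour 1.

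Of 14 tested membrane repair genes 2 were called higher and none lower, and the median ratio was 0.16. Ehd2, which shapes caveolae, had ratios of 2.41, 2.63 and 1.13 (mean 2.06 ± 0.81; adjusted p = 0.00972 in limma's fit). Cavin1, a caveolar coat protein, had 1.27, 1.96 and 1.55 (mean 1.60 ± 0.35; adjusted p = 0.00308 in limma's fit), but its median over all kept probes was 0.92, under the 2-fold limit. The other 12 genes of this list were not called.

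For phosphatidylserine, the lipid that Anxa5 binds, 6 of 18 tested genes of exposure and recognition were called higher and 2 lower, with a median ratio of 0.43. Stab1, a scavenger receptor for phosphatidylserine, had ratios of 2.20, 1.70 and 1.65 (mean 1.85 ± 0.31; adjusted p = 0.0018 in limma's fit). Pros1, which bridges phosphatidylserine to receptor kinases, had 1.48, 1.46 and 1.64 (mean 1.53 ± 0.10; adjusted p = 0.00108 in limma's fit). Gas6, another such bridge, was lower, at -2.05, -2.05 and -0.61 (mean -1.57 ± 0.83; adjusted p = 0.0209 in limma's fit). The Gas6 call did not hold without tumour 1 or without tumour 2, when it averaged -1.33, nor with centring on the spike-in controls, at -0.72. Gas6 stood at 0.13 with centring on the gene-spot median.

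**Figure D5:**
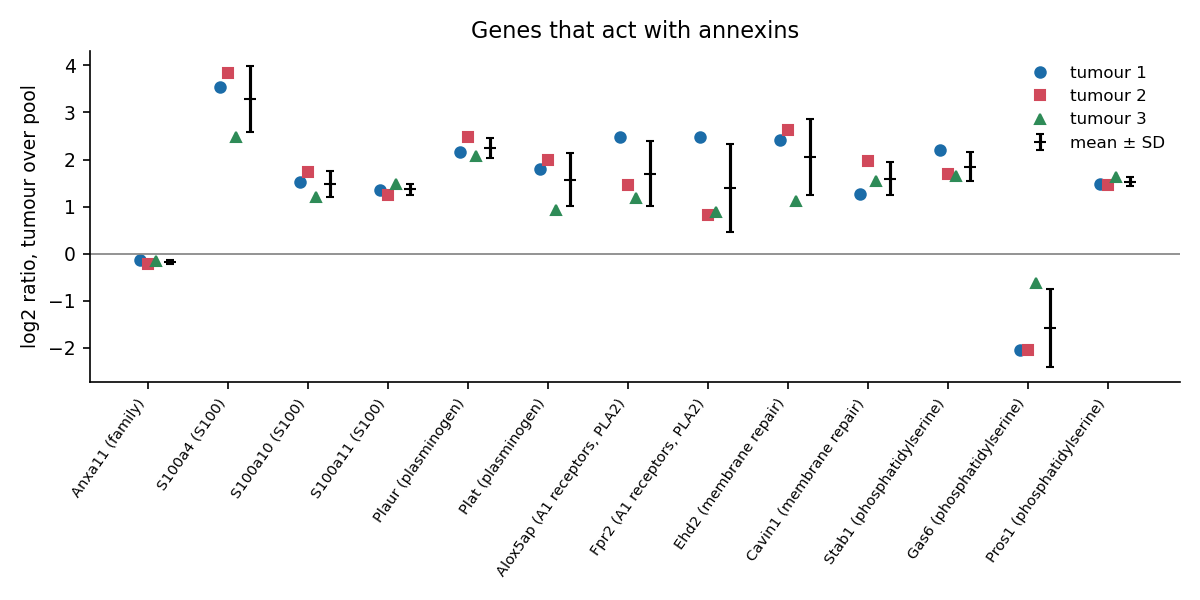
The log2 ratio of tumour over pool (vertical axis) of 12 genes that act with annexins and of Anxa11, with the list in brackets, 1 point per tumour and the mean ± SD (n = 3). Of the genes drawn, S100a4 has the highest mean, 3.29, and Gas6 the lowest, -1.57.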

How the data were processed

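Gene expression was measured on 3 Agilent 2-colour arrays, 1 per tumour, with the same pool on each and the same dye orientation. They lay on 1 slide scanned once, so no batch could be tested. The scanner files hold mean spot signals and local backgrounds as intensity values, per the file headers, together with the deposited log10 ratios of processed signals, red over green. The file headers name Feature Extraction 10.7.3.1 and probe coordinates on mm9. The submitters' processing notes name version 9.5.3. The value table that the authors deposited gives log2 ratios, blank for 48.4 to 49.6% of probes. It lay within 0.01 of the log10 ratios put on the log2 scale at 99.75 to 99.79% of filled probes, which gave its scale and direction. Its column medians were -0.15, -0.14 and -0.11 on replicates 1, 2 and 3.

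In limma 3.58.1 (R 4.3.3), signals were corrected with normexp (offset 50), then loess with control spots at weight 0. Control and outlier spots were dropped, spots of a probe averaged and probes kept when either channel was well above background throughout the 3 arrays. The brightest kept probe stood for a gene. Names came from a GRCm38.p6 RefSeq table for 26055 probes and from the files for 13374. Channel signals are those after Aquantile. The two-sided test of each ratio against 0 used lmFit and eBayes, Benjamini-Hochberg over all genes, with calls at an adjusted p under 0.05 and at least 2-fold. The fit was tested on simulated data.

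The members and lists were chosen with earlier results of these data known. All members are named, and per list up to 3 called genes with the largest ratio, or else the brightest. One gene picked this way is not reported here. Alternatives changed background correction, scaling, filter, probe choice, value source, call rule and replicates.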

Additional observations from a re-analysis of the deposited data

How the results depend on the processing

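The members were chosen from these arrays, so their counts describe the processing and are no sign of stability. Members called higher numbered 8 with gene-spot median centring, 6 with spike-in centring, 6 without the 2-fold rule and 3 to 5 when each tumour was left out, against 3. Members called lower numbered 0 with gene-spot median centring and 1 to 2 when each tumour was left out, against 2. The median of the members was 2.00 with gene-spot median centring, 1.15 with spike-in centring and 0.62 to 0.83 when each tumour was left out. Among the 57 partner genes, 28 were called higher with Agilent's processed signals, 26 with a normexp offset of 0, 33 with gene-spot median centring and 27 without the 2-fold rule. Called lower were 0 with gene-spot median centring, 1 with spike-in centring and 7 without the 2-fold rule. Over all genes, 3738 were called higher with Agilent's processed signals, 3192 with an offset of 0, 7747 with gene-spot median centring, 2795 with spike-in centring and 4765 without the 2-fold rule. Called lower were 3079 with Agilent's processed signals, 556 with gene-spot median centring, 2882 with the authors' table and 4443 without the 2-fold rule. Counts with spike-in centring are not like for like with the others. The adjusted p of S100a4 in limma's fit was 4.4e-26 there, against 0.00227 as reported. Ratios that turned sign were those of Anxa4 (1.23 with gene-spot median and 0.38 with spike-in centring), Anxa7 (-0.072 with the median of its probes, -0.161 to 0.235 when each tumour was left out and -0.23 by the dimmer probe), Anxa11 (1.14 with gene-spot median and 0.29 with spike-in centring) and Gas6 (0.13 with gene-spot median centring). The cause was not tested. No paired analysis was possible because all samples belong to 1 group and the pool has no replicate. The number of arrays limits the precision.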
